A study of Homo sapiens with 46 samples.

Results

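Small leucine-rich proteoglycans, lysyl oxidases and lysyl hydroxylases decide how collagen fibrils are spaced, modified and joined. The 10 genes described here were listed by name: the proteoglycans LUM (lumican), DCN (decorin) and BGN (biglycan), the lysyl oxidases LOX, LOXL1, LOXL2, LOXL3 and LOXL4, and the lysyl hydroxylases PLOD1 and PLOD2. They are 10 of 60668 gene identifiers in the count tables. Splicing events assigned to them numbered 119 of 179118 in the 200 nM table, 88 of 139012 in the 50 nM table, 132 of 218608 in the siRNA table and 47 of 138022 in the tumour table, which makes 190 distinct events; BGN had none.

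The proteoglycan core proteins bind to the surface of collagen fibrils and limit their thickness, and their glycosaminoglycan chains reach between neighbouring fibrils. Inside the cell, lysyl hydroxylases add hydroxyl groups to lysines of procollagen, PLOD1 mainly in the helix and PLOD2 in the telopeptides. Outside the cell, lysyl oxidases turn lysines and hydroxylysines of collagen and elastin into aldehydes, which then form the covalent crosslinks that stiffen the matrix.

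RNA was sequenced from 46 samples in 14 groups, to follow gene levels and splicing after ASO-1570, which targets TRA2B splicing as an antisense oligonucleotide. TRA2B encodes a splicing activator of the SR protein family. MDA-MB-231, a breast cancer line, and U87MG, a glioblastoma line, were transfected by lipofection and taken after 48 hours. ASO-1570 and the control oligonucleotide ASO-CTL were given at 200 nM and at 50 nM, and siRNA-TRA2B and siRNA-CTL at 10 nM, which makes 12 groups of 3 libraries. Human breast tumours grown in mice (a patient-derived xenograft, PDX), in hosts that the labels call immunocompetent, received intratumoral ASO-1570 or ASO-CTL at 50 mg/kg in 3 injections per week over 4 weeks, with 5 tumours in each group. No genotype or transgene is given. For MDA-MB-231 the cell type label reads glioblastoma in all but the 200 nM samples, against the line label, which was followed. Nothing in the labels says whether replicates of a line came from separate cultures, so the p-values measure the spread between these libraries, which may be technical.

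Libraries held between 259.9 M and 356.8 M counts in the 200 nM experiment and between 75 M and 112.8 M in the 50 nM, siRNA and PDX experiments. Mitochondrial genes took 1.73% to 3.16% of the counts in the lines and 17.65% to 75.31% in the tumours. TRA2B fell in every line comparison, with log2 changes from -0.76 to -1.13 for ASO-1570 and of -3.11 and -2.83 for the siRNA, while in the tumours its change was -0.16 (adjusted p = 0.707, edgeR). Epithelial markers summed to 1380 to 4010 CPM (counts scaled to an effective library size of 1 M) in MDA-MB-231 and 1740 to 4240 CPM in the tumours, against 4.72 to 10.9 CPM in U87MG. The glial marker GFAP averaged 0.0839, 1.32 and 1.71 CPM in the U87MG control groups and 3.10, 2.72 and 3.23 CPM in those of MDA-MB-231, while the 7 glial markers together summed to 31 to 49.9 CPM in U87MG controls and 23.3 to 40.1 CPM in those of MDA-MB-231, higher in U87MG within each table. In the 200 nM controls 4 of 6 tested glial markers were called higher in U87MG and 1 in MDA-MB-231, where 68.1% of all genes were called between the lines. Fibroblast markers, collagens among them, summed to 1240 to 4470 CPM in U87MG, 90 to 205 CPM in MDA-MB-231 and 42.2 to 88.3 CPM in the tumours.

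The exons on which the splicing results turn are printed first, 5′ to 3′ on the transcript strand, from GENCODE 29 transcripts on GRCh38. Capitals mark the letters GAAGAA and AGAAG, searched on the transcript strand only, where they may overlap each other; TRA2 proteins are known to bind such purine-rich stretches. The first is the alternative exon of PLOD2 (chr3:146077862-146077924, minus strand, exon 14 of PLOD2-201), whose 63 bases keep the reading frame and which distinguishes the long from the short form of the enzyme. The PLOD1 pair are exon 7 of the main transcript PLOD1-201 (chr1:11956917-11957014, plus strand) and the exon that PLOD1-203 carries in its place (chr1:11957090-11957193). The LOXL3 exon is exon 5 of LOXL3-201 (chr2:74536709-74536928, minus strand), which the annotated short forms LOXL3-202 and LOXL3-205 leave out together with exon 4. The last is exon 3 of PLOD2-201 (chr3:146121112-146121248, minus strand).
PLOD2 63-base exon: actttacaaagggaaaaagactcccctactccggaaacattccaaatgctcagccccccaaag
PLOD1 98-base exon 7: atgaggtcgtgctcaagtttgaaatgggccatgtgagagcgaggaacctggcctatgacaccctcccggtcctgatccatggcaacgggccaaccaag
PLOD1 104-base alternative exon: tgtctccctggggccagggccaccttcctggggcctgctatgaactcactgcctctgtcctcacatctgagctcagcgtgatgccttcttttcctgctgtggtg
LOXL3 220-base exon 5: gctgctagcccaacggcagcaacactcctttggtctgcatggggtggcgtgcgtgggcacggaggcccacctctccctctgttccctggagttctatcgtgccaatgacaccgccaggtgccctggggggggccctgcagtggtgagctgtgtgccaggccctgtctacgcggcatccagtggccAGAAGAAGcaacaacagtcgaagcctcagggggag
PLOD2 137-base exon 3: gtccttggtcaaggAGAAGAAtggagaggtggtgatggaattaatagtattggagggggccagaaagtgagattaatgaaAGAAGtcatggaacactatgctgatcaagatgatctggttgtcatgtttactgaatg
The LOXL3 and PLOD2 exon 3 sequences hold both motifs, and the other exons hold neither. Of all annotated exons, those as long as the PLOD2 alternative exon hold AGAAG in 18.4% and GAAGAA in 6.9%, those as long as PLOD2 exon 3 in 30.2% and 11.2%, and those as long as LOXL3 exon 5 in 38.9% and 17.0%. A match is a description of these letters and not of binding.

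With ASO-1570 the proteoglycan LUM rose in both lines and the proteoglycan DCN rose in U87MG. Under it LOXL2 and LOXL1 fell in U87MG, LOXL4 rose and PLOD1 fell in MDA-MB-231, and PLOD2 rose in U87MG. Of the 10 genes, 3 were called higher and 1 lower in MDA-MB-231 at 200 nM, where 25.2% of all genes tested were called in either direction (edgeR's quasi-likelihood test, Benjamini-Hochberg adjusted p below 0.05 over all genes). In U87MG at 200 nM 3 were called higher and 4 lower, against 49.7% of all genes. At 50 nM the counts were 3 higher and 1 lower in MDA-MB-231, against 23.3% of all genes, and 3 higher and 2 lower in U87MG, against 54.6%. With the TRA2B siRNA, 1 was higher and 1 lower in MDA-MB-231, against 7.24% of all genes, and 1 was lower in U87MG, against 4.2%. With 10 genes these counts are read for the genes they name and not as a property of the list. DCN and BGN passed the filter on low counts in the line tables through U87MG alone. The DCN calls in MDA-MB-231, included in the counts above, rest on at most 12 counts per library at 200 nM and 7 at 50 nM.

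**Figure D1:**
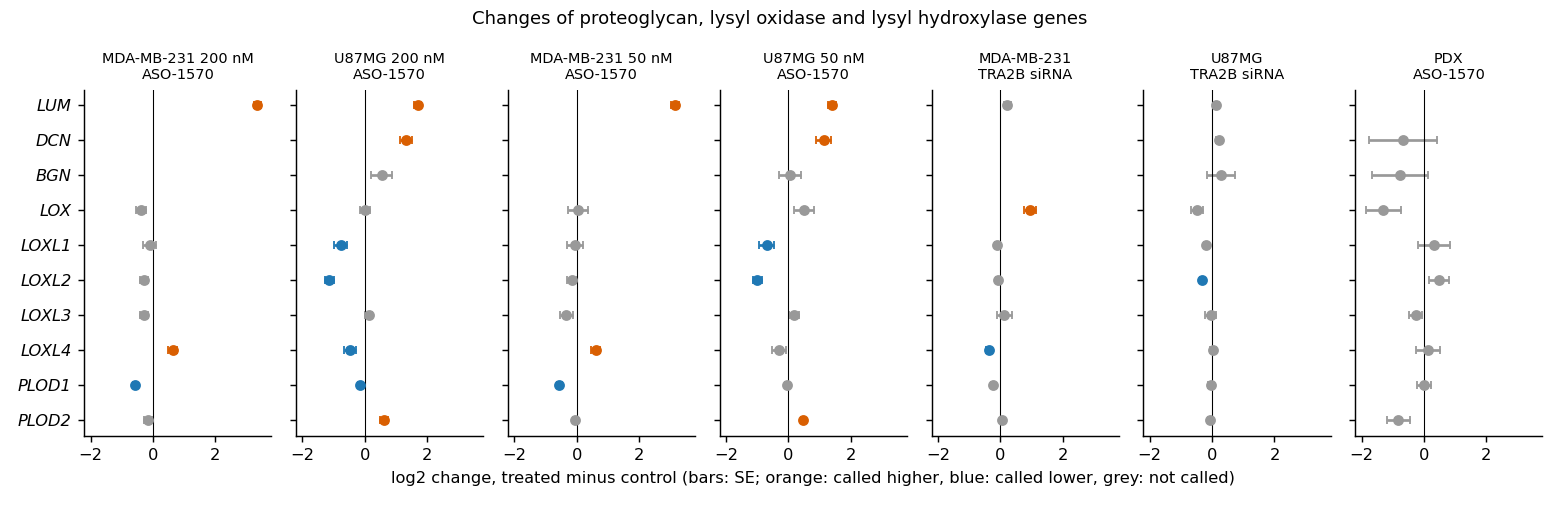
Each panel plots the log2 change, treated minus control, of the 10 genes in a comparison, with its SE; orange marks genes called higher, blue genes called lower and grey genes not called. DCN and BGN are not drawn in MDA-MB-231, where controls had no counts, nor LUM in the PDX, where it was not tested; LUM stands furthest right in every oligonucleotide comparison of the lines.

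LUM (chr12:91102629-91111831, minus strand), the keratan sulphate proteoglycan lumican, rose in both lines and at both doses. In MDA-MB-231 it was at 1.37, 1.22 and 1.38 CPM in controls and at 13.8, 12.8 and 14.1 CPM with 200 nM ASO-1570, a log2 change of 3.35 ± 0.11 (SE, adjusted p = 3.63e-08, edgeR). At 50 nM the controls were at 2.18, 1.94 and 1.59 CPM and the treated libraries at 17.2, 17.5 and 16.0 CPM, a log2 change of 3.15 ± 0.13 (adjusted p = 5.32e-07, edgeR). Every treated library lay above every control.

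U87MG started from a higher LUM level and rose less. At 200 nM its controls were at 3.23, 2.98 and 3.05 CPM and its treated libraries at 11.1, 10.1 and 8.89 CPM (log2 change 1.70 ± 0.11, adjusted p = 4.68e-07, edgeR). At 50 nM they were at 4.86, 4.58 and 3.98 CPM against 12.7, 11.9 and 10.9 CPM (log2 change 1.4 ± 0.12, adjusted p = 2.73e-06, edgeR). The groups again did not overlap. The rise in MDA-MB-231 exceeded that in U87MG by 1.65 ± 0.15 on the log2 scale at 200 nM (adjusted p = 7.21e-05, edgeR interaction) and by 1.75 ± 0.17 at 50 nM (adjusted p = 0.000119), with 23.6% and 28.2% of all genes called in these line differences. The order of the lines thereby reversed. At 200 nM mean LUM was 1.32 CPM in MDA-MB-231 and 3.09 CPM in U87MG controls, and 13.5 and 10.0 CPM in treated libraries. At 50 nM these means were 1.9 and 4.47 CPM in controls, and 16.9 and 11.8 CPM in treated libraries.

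With the TRA2B siRNA LUM was at 2.28, 1.99 and 2.32 CPM in MDA-MB-231 controls and at 2.78, 2.52 and 2.42 CPM in treated libraries, a log2 change of 0.23 ± 0.10 that did not pass (adjusted p = 0.222, edgeR), though the groups did not overlap. In U87MG it was 7.17, 6.65 and 8.21 CPM against 7.83, 7.85 and 8.36 CPM (log2 change 0.13, adjusted p = 0.565). The 50 nM oligonucleotide changed LUM by 2.92 ± 0.15 more than the siRNA did in MDA-MB-231 (adjusted p = 1.56e-13, edgeR, 36 libraries fitted together) and by 1.23 ± 0.15 more in U87MG (adjusted p = 1.67e-07). For TRA2B the same differences were 2.35 in MDA-MB-231 and 1.66 in U87MG, the siRNA lowering it further. The oligonucleotide and the siRNA were run in separate experiments, which cannot be told apart from the reagents; 11.2% of all genes were called in MDA-MB-231 and 33.8% in U87MG.

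DCN (chr12:91140484-91183123, minus strand), the chondroitin or dermatan sulphate proteoglycan decorin, is LUM's neighbour, with 28652 bases between the genes. In U87MG it was at 5.48, 6.30 and 5.28 CPM in controls and at 15.4, 14.2 and 12.9 CPM with 200 nM ASO-1570 (log2 change 1.32 ± 0.19, adjusted p = 0.000209, edgeR). At 50 nM it was at 7.28, 6.29 and 6.16 CPM against 15.0, 15.3 and 12.9 CPM (log2 change 1.13 ± 0.24, adjusted p = 0.0027, edgeR). Its groups did not overlap at either dose. Per kb of exon the treated level of DCN lay below that of LUM, at 1.11 ± 0.095 against 3.33 ± 0.371 CPM per kb at 200 nM and 1.12 ± 0.104 against 3.93 ± 0.306 CPM per kb at 50 nM (SD, n = 3). With the siRNA DCN was at 8.21, 7.67 and 8.41 CPM against 9.69, 9.21 and 9.26 CPM, which did not pass (log2 change 0.21, adjusted p = 0.243), and the 50 nM oligonucleotide changed it by 0.87 ± 0.28 more than the siRNA (adjusted p = 0.0215, edgeR).

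In MDA-MB-231 no control library had a DCN read in any experiment. The 200 nM treated libraries had 12, 5 and 3 counts, at least 6.89-fold above a floor of 3 counts over the control group (adjusted p = 0.00262, edgeR). At 50 nM they had 3, 7 and 0 counts, at least 3.45-fold above that floor (adjusted p = 0.0288), a call lost when any control library, treated replicate 1 or treated replicate 2 was left out (adjusted p = 0.0617 to 0.0946). With the siRNA DCN had 0 counts in all 6 libraries. All of these MDA-MB-231 libraries lay below 0.1 CPM, and every U87MG library above 5 CPM. DCN entered the MDA-MB-231 tests through its U87MG counts alone. With only the control and treated libraries of MDA-MB-231 fitted, it did not pass the filter on low counts and was not tested. No rise of DCN in MDA-MB-231 is read from these calls.

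Other genes of the LUM and DCN neighbourhood had few counts. The noncoding gene LINC00615 had 6 to 37 counts in each MDA-MB-231 library, at group means of 0.0714 to 0.122 CPM, and 2 counts in all of U87MG. At 200 nM it had 37, 25 and 12 counts in MDA-MB-231 controls and 14, 36 and 14 in treated libraries, groups that overlap. KERA (keratocan), which lies next to LUM on the side away from DCN, had 0 counts in every library, and EPYC (epiphycan) had 12 counts in 1 MDA-MB-231 library at 200 nM and 2 in 1 U87MG library. Both are small leucine-rich proteoglycans of the same cluster.

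BGN (chrX:153494939-153509554, plus strand), the biglycan gene, was close to silent. It had 0 counts in all 18 MDA-MB-231 libraries and 0.0808 to 0.384 CPM in U87MG. No treatment comparison called it. In the controls it was called lower in MDA-MB-231 than in U87MG in all 3 tables, a direction set by the filter, which BGN passed through U87MG alone. BGN overlaps HAUS7 on the opposite strand, which stood at 4.14 to 11.1 CPM, and the strand used in counting is not given in the sources used here, so the few BGN reads are uncertain.

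**Figure D2:**
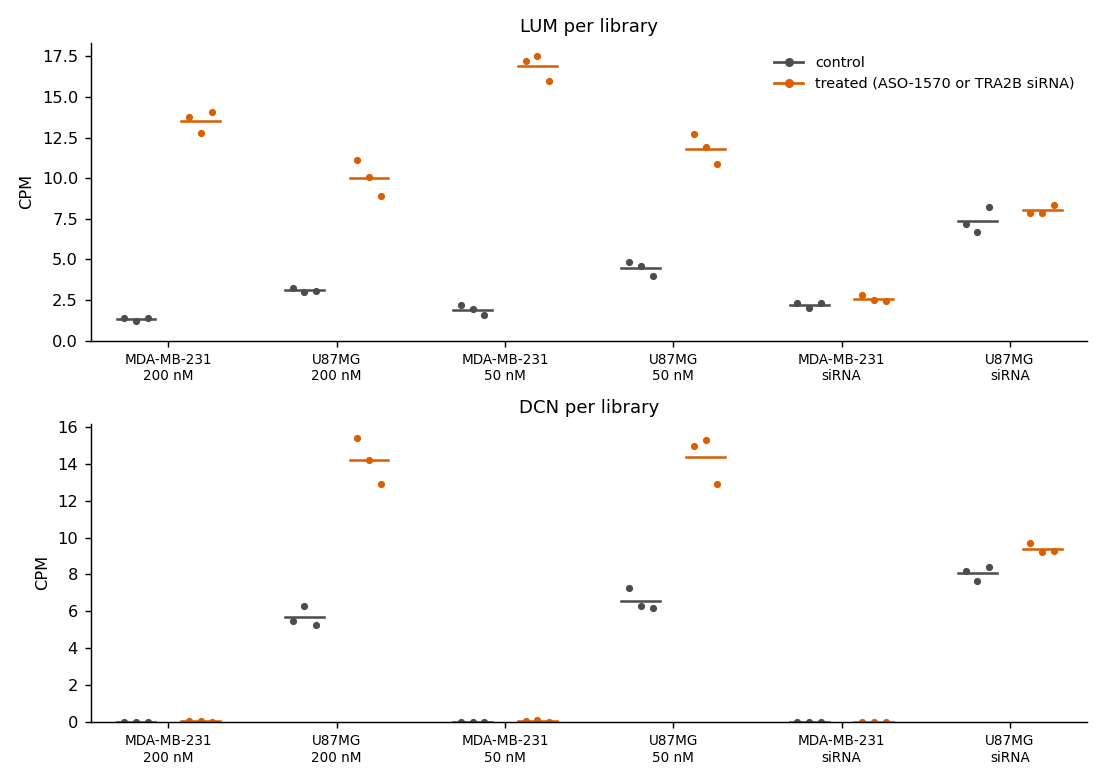
Points are the CPM of LUM and DCN in each line library, lines are group means, grey for controls and orange for treated libraries. Treated oligonucleotide groups lie above their controls for LUM in both lines and for DCN in U87MG, while the siRNA groups lie close to theirs and DCN stays near 0 in MDA-MB-231.

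The genes whose levels moved most like LUM over the 36 line libraries, with each line centred on its own mean, were FBXL2 (Pearson r = 0.921), ABHD5 (r = 0.902) and STAT4 (r = 0.898), among 12178 genes. For DCN, the gene with the largest fitted rise, they were the gene identified only as ENSG00000273038.2 (r = 0.858), MANBA (r = 0.857) and ABHD5 (r = 0.853). These are descriptions across libraries that share lines, treatments and experiments; LUM was added to this search after its values were seen, because DCN is near 0 in MDA-MB-231.

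LOX (chr5:122063195-122078360, minus strand), the founding lysyl oxidase, did not pass with ASO-1570 in either line. At 200 nM in MDA-MB-231 it was at 177, 210 and 197 CPM in controls and at 156, 119 and 176 CPM in treated libraries (log2 change -0.37, adjusted p = 0.108, edgeR). In U87MG at 50 nM 1 treated library, replicate 3, stood at 1538 CPM beside 588 and 529 CPM, and the controls were at 572, 638 and 667 CPM, so the spread within the group exceeds the difference between groups (adjusted p = 0.229). With the siRNA LOX rose in MDA-MB-231, from 155, 169 and 134 CPM to 304, 315 and 272 CPM, a log2 change of 0.96 ± 0.19 (adjusted p = 0.0103, edgeR). In U87MG the siRNA controls spread from 1028 to 1924 CPM and the treated libraries from 942 to 1052 CPM (log2 change -0.47, adjusted p = 0.21).

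The siRNA effects on LOX in the lines differed by 1.43 ± 0.27 on the log2 scale (adjusted p = 0.0465, edgeR interaction, 0.527% of all genes called). That call was lost with DESeq2's size factors, with no filter on low counts, and in 10 of 12 fits that left out a library. In MDA-MB-231 the summed fibroblast markers were also higher with the siRNA, 202 to 205 against 144 to 157 CPM; their part in the rise of LOX was not tested.

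LOXL2, on chromosome 8, is a lysyl oxidase with scavenger receptor domains that acts on type IV collagen, and it fell in U87MG. At 200 nM it went from 976, 915 and 963 CPM to 517, 330 and 446 CPM, a log2 change of -1.14 ± 0.14 (adjusted p = 2.95e-05, edgeR). At 50 nM it went from 760, 753 and 813 CPM to 380, 287 and 494 CPM (log2 change -1.0 ± 0.15, adjusted p = 0.000171). With the siRNA the fall was smaller, from 1297, 1220 and 1126 CPM to 1009, 1002 and 902 CPM (log2 change -0.32 ± 0.06, adjusted p = 0.0118), and was lost without control replicate 1 (adjusted p = 0.0517). The groups did not overlap in any of these.

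In MDA-MB-231 LOXL2 was at 412, 435 and 449 CPM against 360, 307 and 394 CPM at 200 nM, which did not pass (log2 change -0.29, adjusted p = 0.143, edgeR). The effects in the lines differed by 0.85 ± 0.19 at 200 nM (adjusted p = 0.0076, edgeR interaction) and by 0.85 ± 0.21 at 50 nM (adjusted p = 0.012). In U87MG the oligonucleotide at 50 nM changed LOXL2 by -0.72 ± 0.19 relative to the siRNA (adjusted p = 0.0032). LOXL2 overlaps ENTPD4 on its own strand, at 28.1 to 189 CPM over all groups. The genes most like LOXL2 over the 36 line libraries were TUBB (Pearson r = 0.980), STEAP3 (r = 0.979) and SCMH1 (r = 0.977), again as a description across libraries that share lines and treatments.

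LOXL1 (chr15:73925989-73952137, plus strand), the lysyl oxidase tied to elastic fibres, also fell in U87MG. It went from 49.7, 38.1 and 41.6 CPM to 33.7, 16.3 and 26.1 CPM at 200 nM (log2 change -0.77 ± 0.21, adjusted p = 0.00847, edgeR). At 50 nM it went from 19.2, 20.6 and 19.9 CPM to 11.6, 7.76 and 17.6 CPM (log2 change -0.69 ± 0.24, adjusted p = 0.0278), a call lost when any library but treated replicate 3 of the pair was left out (adjusted p = 0.05 to 0.0797) and with the 2 groups fitted alone (adjusted p = 0.0523). MDA-MB-231 held LOXL1 at 2.00 to 6.64 CPM in the oligonucleotide experiments and did not pass at either dose. The antisense gene LOXL1-AS1 stood at 1.45 to 31.7 CPM.

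In the same U87MG libraries the summed fibroblast markers were lower in treated than in control groups, 1240 to 1720 against 2320 to 2490 CPM at 200 nM and 1410 to 2310 against 2610 to 2850 CPM at 50 nM. Their direction is that of LOXL1 and LOXL2 and opposite to that of LUM and DCN; their part in these results was not tested. Of these 11 markers, COL3A1 and THY1 were below 1 CPM in the U87MG controls. In MDA-MB-231 the sum was also lower in treated libraries, 90 to 135 against 142 to 165 CPM at 200 nM, and at 50 nM 99.1 to 150 against 148 to 169 CPM, where the groups overlap. Across the 10 markers tested there the median change was 0.04 at 200 nM (1 higher, 2 lower) and 0.12 at 50 nM (none higher, 1 lower), so the lower sum did not extend to the median marker. Of all genes tested in MDA-MB-231, 25.2% were called at 200 nM and 23.3% at 50 nM. Each of these libraries came from a cultured line, so the sums are levels of these genes and not a share of fibroblasts. In bulk RNA, fewer cells expressing them and less RNA per cell cannot be told apart.

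LOXL4 (chr10:98247690-98268250, minus strand), a lysyl oxidase with scavenger receptor domains, was the lysyl oxidase that rose in MDA-MB-231 with ASO-1570. It went from 110, 103 and 112 CPM to 159, 158 and 187 CPM at 200 nM (log2 change 0.63 ± 0.15, adjusted p = 0.00989, edgeR). The 50 nM values went from 76.5, 75.0 and 78.9 CPM to 104.3, 120 and 127 CPM (log2 change 0.61 ± 0.14, adjusted p = 0.00733). Epithelial markers summed higher in the same treated libraries, 2910 to 4010 against 2470 to 2730 CPM at 200 nM and 1500 to 1780 against 1380 to 1500 CPM at 50 nM; their part in the rise was not tested. With the siRNA it moved the other way, from 114, 117 and 103.5 CPM to 85.4, 84.3 and 88.7 CPM (log2 change -0.37 ± 0.08, adjusted p = 0.0115), a call lost without control replicate 1, control replicate 2 or treated replicate 2 (adjusted p = 0.0544 to 0.062).

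The oligonucleotide at 50 nM and the siRNA differed in their effect on LOXL4 in MDA-MB-231 by 0.98 ± 0.19 (adjusted p = 0.000547, edgeR, 36 libraries fitted together). U87MG held little LOXL4, 0.956 to 1.04 CPM in the 200 nM controls and 0.994, 0.515 and 0.667 CPM in treated libraries. The fall was called (log2 change -0.47, adjusted p = 0.0452) though the groups overlap, and the call was lost without the filter on low counts (adjusted p = 0.0605), with the 2 groups fitted alone (adjusted p = 0.104) and when any library but treated replicate 1 was left out (adjusted p = 0.0536 to 0.173). The line effects differed by 1.10 ± 0.23 at 200 nM (adjusted p = 0.00568) and by 0.91 ± 0.26 at 50 nM (adjusted p = 0.0237).

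LOXL3 (chr2:74532414-74555690, minus strand), a lysyl oxidase with scavenger receptor domains, was called in no treatment comparison. In U87MG it was at 75.0, 72.5 and 71.7 CPM against 91.7, 59.3 and 87.1 CPM at 200 nM, and in MDA-MB-231 at 1.94, 2.06 and 1.87 CPM against 1.64, 1.56 and 1.597 CPM (adjusted p = 0.461 and 0.14, edgeR). It overlaps DOK1 and HTRA2 on the opposite strand, at 4.07 to 43 and 18.2 to 37.7 CPM.

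PLOD1 (chr1:11934205-11975538, plus strand), the helical lysyl hydroxylase, fell in MDA-MB-231. It went from 285, 287 and 300.5 CPM to 195, 194 and 198 CPM at 200 nM (log2 change -0.57 ± 0.06, adjusted p = 5.96e-05, edgeR). With 50 nM it went from 159, 176 and 182 CPM to 112, 115 and 127 CPM (log2 change -0.55 ± 0.07, adjusted p = 0.000205), and the groups were apart at both doses. With the siRNA it was at 180, 185 and 167 CPM against 138, 156 and 160 CPM (log2 change -0.23, adjusted p = 0.0751), and the 50 nM oligonucleotide differed from the siRNA by -0.33 ± 0.10 (adjusted p = 0.023).

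In U87MG PLOD1 changed little, from 440, 407 and 431 CPM to 396, 365 and 380 CPM at 200 nM (log2 change -0.16 ± 0.06, adjusted p = 0.0289, edgeR), a call lost without control replicate 1, treated replicate 2 or treated replicate 3 (adjusted p = 0.0769 to 0.105). It did not pass at 50 nM (log2 change -0.04, adjusted p = 0.603). The line effects differed by -0.41 ± 0.08 at 200 nM (adjusted p = 0.00358) and by -0.50 ± 0.09 at 50 nM (adjusted p = 0.00293).

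PLOD2 (chr3:146069440-146163653, minus strand), the telopeptide lysyl hydroxylase, rose in U87MG. It went from 581, 544 and 522 CPM to 914, 761 and 863 CPM at 200 nM (log2 change 0.62 ± 0.13, adjusted p = 0.00185, edgeR). The 50 nM groups went from 892, 866 and 875 CPM to 1162, 1144 and 1319 CPM (log2 change 0.46 ± 0.06, adjusted p = 7.95e-05). MDA-MB-231 held PLOD2 at 130, 146 and 140 CPM against 144, 93.5 and 133 CPM at 200 nM (log2 change -0.17, adjusted p = 0.385). The line effects differed by -0.79 ± 0.19 at 200 nM (adjusted p = 0.00943) and by -0.52 ± 0.09 at 50 nM (adjusted p = 0.00182). In U87MG the 50 nM oligonucleotide changed PLOD2 by 0.49 ± 0.13 more than the siRNA (adjusted p = 0.0052). PLOD1 was thus called lower in MDA-MB-231, where PLOD2 did not pass, and PLOD2 higher in U87MG.

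**Figure D3:**
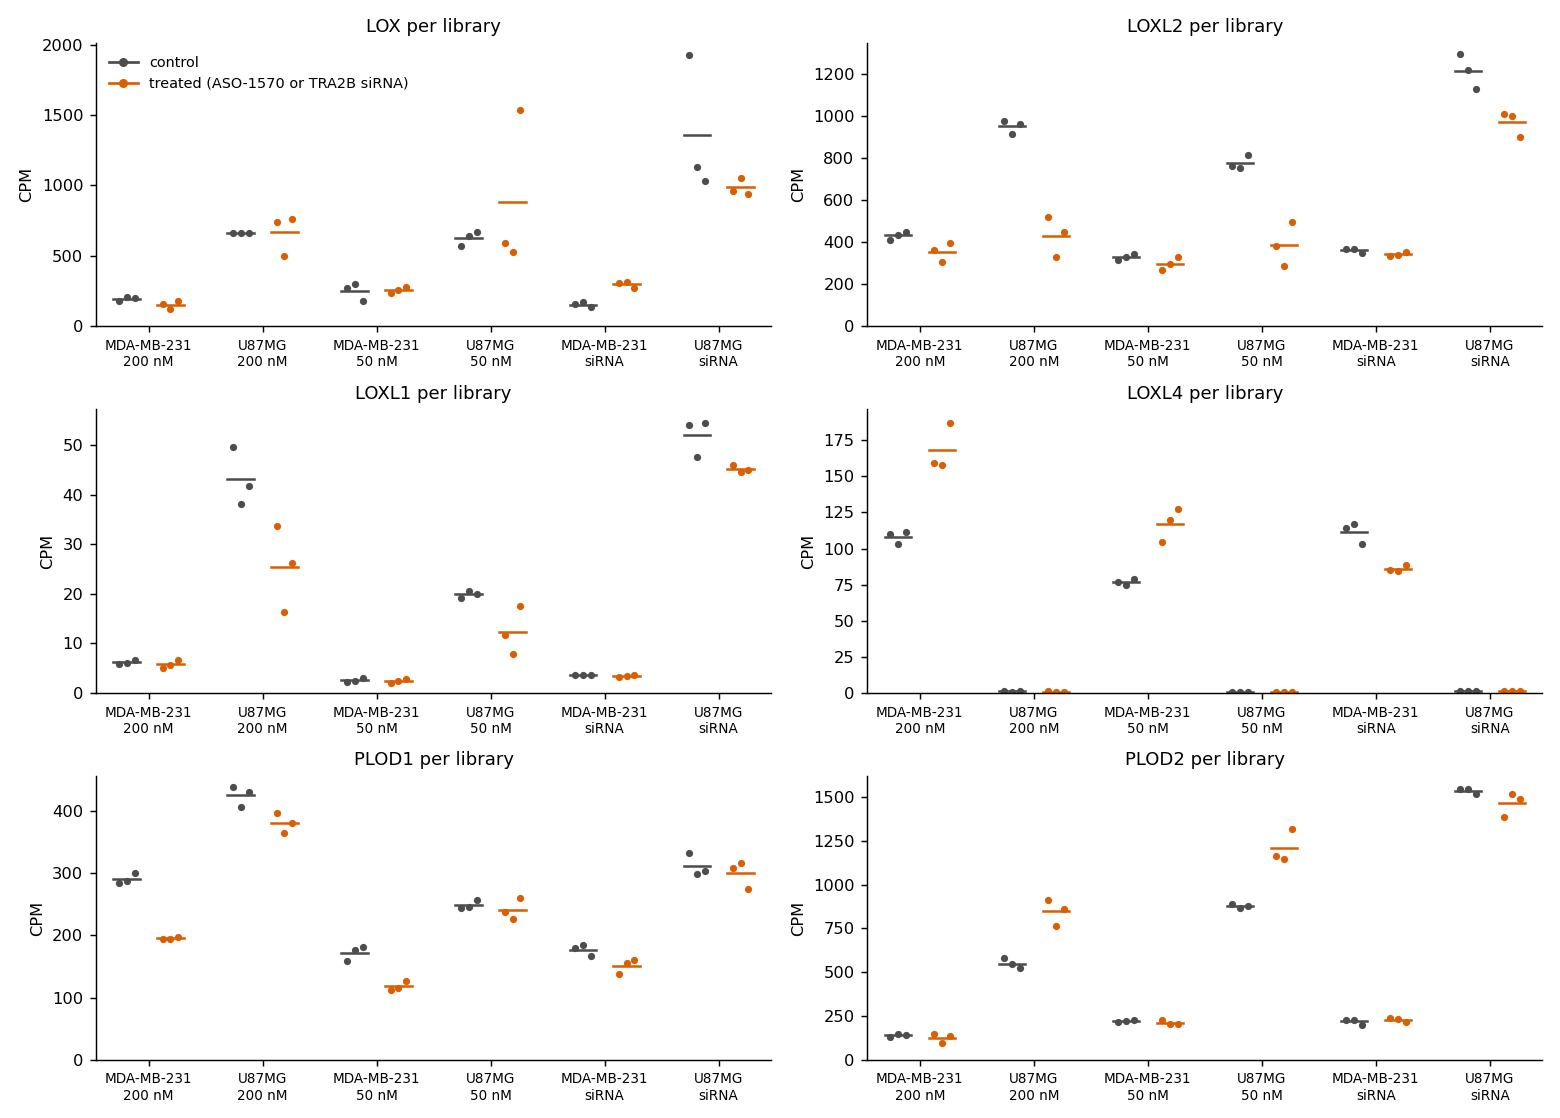
Points are the CPM of 4 lysyl oxidases and the lysyl hydroxylases in each line library, lines are group means, grey for controls and orange for treated libraries. LOXL2 and LOXL1 drop in U87MG with the oligonucleotide, LOXL4 rises and PLOD1 drops in MDA-MB-231, PLOD2 rises in U87MG, and single LOX libraries stand apart at 1538 and 1924 CPM.

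Between the doses, the effects of 200 nM and 50 nM ASO-1570 differed for none of the 10 genes in either line (edgeR, 36 libraries fitted together; DESeq2 also called none of them). At an unadjusted p under 0.05 the only one was LUM in U87MG, whose rise was larger at 200 nM by 0.34 ± 0.14 (adjusted p = 0.341). Over all genes, 0.158% differed in MDA-MB-231 and 1.66% in U87MG. The doses were run in separate experiments with their own controls, so dose and experiment cannot be told apart. In MDA-MB-231 the difference for LUM was 0.23 ± 0.15 and for PLOD1 0.00 ± 0.10.

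The lines differed in their control levels. In the control libraries 9 of the 10 genes were higher in U87MG and LOXL4 alone was higher in MDA-MB-231, in all 3 experiments, where 68.1%, 73.0% and 77.3% of all genes differed (200 nM, 50 nM and siRNA tables). The 9 include DCN and BGN, which passed the filter on low counts through U87MG alone. For DCN and BGN the direction was thereby set by the filter, and their calls are not read as a result. LOXL4 was 94.9 to 112-fold higher in MDA-MB-231, and LOXL3 lay at 1.94, 2.06 and 1.87 CPM there against 71.7 to 75.0 CPM in U87MG.

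Per kilobase of exon, which allows genes to be set side by side, LOXL2 led in MDA-MB-231 controls at 57.7 to 75.7 CPM per kb, with PLOD1 at 32.4 to 54.6, LOX at 27.5 to 45.2, LOXL4 at 21.0 to 30.5 and PLOD2 at 18.2 to 28.8, where from PLOD1 on each range overlaps the next. LOXL1 (0.692 to 1.70), LUM (0.44 to 0.73) and LOXL3 (0.36 to 0.449) followed far below. In U87MG controls LOXL2 (136 to 213), LOX (113 to 245), PLOD2 (71.8 to 201) and PLOD1 (46.8 to 80.1) led, then LOXL3 (13.1 to 24.6) and LOXL1 (5.47 to 14.3), with LUM at 1.02 to 2.44, DCN at 0.443 to 0.63, LOXL4 at 0.188 to 0.325 and BGN at 0.0584 to 0.0917. In the tumours PLOD1 (17.9 ± 3.82, SD, n = 5) and LOXL4 (16.5 ± 8.45) led and did not differ beyond their spread. LOX (1.81) and PLOD2 (1.75) came next, and LUM was at 0.00481.

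**Figure D4:**
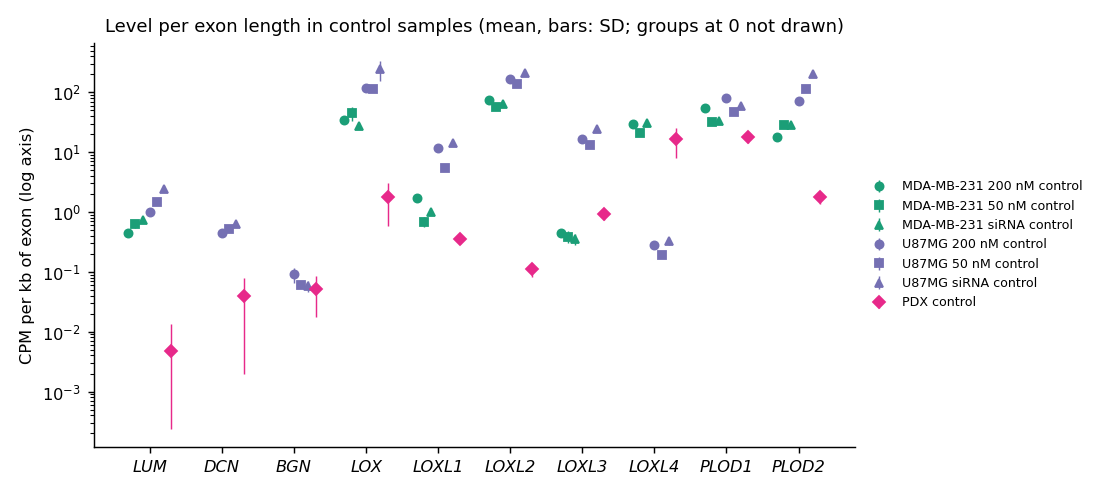
The mean level of each gene in control samples is plotted as CPM per kb of exon on a log axis, with bars for the SD over 3 libraries or 5 tumours, cut short where the SD exceeds the mean. Green is MDA-MB-231, violet U87MG and pink the PDX. DCN and BGN had no counts in MDA-MB-231 controls and are not drawn there. All other genes but LOXL4 sit higher in U87MG than in MDA-MB-231.

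In the tumours no gene of the 10 was called, and neither was any of the 23812 genes tested (0% by edgeR, with 2053 genes at an unadjusted p under 0.05; DESeq2 called 3 genes, none of them among the 10). LUM had 0 to 7 counts per tumour and was not tested. LOX was at 11.6, 5.97, 8.54, 20.8 and 3.15 CPM in controls and at 9.61, 3.06, 3.28, 3.03 and 1.29 CPM with ASO-1570 (log2 change -1.30 ± 0.57, adjusted p = 0.487, edgeR). PLOD2 was at 16.6, 12.7, 13.99, 15.2 and 8.45 CPM against 16.2, 6.16, 6.76, 3.77 and 4.86 CPM (log2 change -0.82 ± 0.37, adjusted p = 0.487, edgeR). The groups overlapped for both genes, for PLOD2 through 1 treated tumour of high value and for LOX also without it. The mitochondrial share averaged 52.9% in treated and 33.2% in control tumours. With that share as a covariate the log2 changes were -0.52 for LOX and -0.33 for PLOD2 (adjusted p = 0.925 and 0.924, edgeR). LOXL3 was at 3.75, 5.24, 3.57, 3.70 and 3.58 CPM in controls and at 3.37, 3.54, 3.54, 3.12 and 3.03 CPM in treated tumours, groups that did not overlap (log2 change -0.26, adjusted p = 0.567). The other genes tested had log2 changes from -0.76 (BGN) to 0.47 (LOXL2). Epithelial markers ranged from 2120 to 4240 CPM in control and from 1740 to 3840 CPM in treated tumours.

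Other genes of the same pathways were counted in lists. Of 28 tested genes of glycosaminoglycan chain synthesis, 15 fell and 1 rose in MDA-MB-231 at 200 nM (median log2 change -0.35, against 0.00 over all genes), and 17 fell and 1 rose in U87MG (median -0.42, against 0.02), where 25.2% and 49.7% of all genes were called. At 50 nM 10 fell and 1 rose in MDA-MB-231 (23.3% of all genes called), and 13 fell and 2 rose in U87MG (54.6%, close to the share in the list). CHST11, a chondroitin 4-sulphotransferase, fell in all 4 oligonucleotide comparisons, by 0.98 and 0.91 on the log2 scale in MDA-MB-231 at 200 and 50 nM (adjusted p = 1.87e-05 and 4.16e-06, edgeR). In U87MG it fell by 0.66 and 0.78 (adjusted p = 3.78e-05 and 1.30e-06). CHPF, a chondroitin polymerising factor, fell by 1.34 in U87MG at 200 nM (adjusted p = 8.2e-07). With the siRNA 2 of the 28 fell in MDA-MB-231, near the 7.24% of all genes called, and 3 fell and 1 rose in U87MG, where 4.2% of all genes were called.

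Of 18 further genes of collagen modification and folding, 10 fell and 1 rose in each line at 200 nM (medians -0.32 and -0.45), beside 25.2% of all genes called in MDA-MB-231 and 49.7% in U87MG. At 50 nM 9 fell in MDA-MB-231 (23.3% of all genes called), and 11 fell and 1 rose in U87MG (54.6%). P3H1 and CRTAP form the prolyl 3-hydroxylase complex. At 200 nM P3H1 fell by 0.72 (MDA-MB-231) and 1.04 (U87MG) (adjusted p = 0.000139 and 1.83e-06, edgeR), and CRTAP by 0.45 and 0.46 (adjusted p = 0.00015 and 1.96e-05). P4HB, the beta subunit of prolyl 4-hydroxylase, fell by 0.64 and 0.60 (adjusted p = 0.00015 and 3.40e-05). With the siRNA P4HA1 and SERPINH1 were the 2 called in each line, with log2 changes of -0.28 and -0.21 (MDA-MB-231) and of -0.27 and -0.27 (U87MG). Of all genes tested, 7.24% were called with the siRNA in MDA-MB-231 and 4.2% in U87MG.

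TLL2, a metalloproteinase of the BMP1 family, rose in all 4 oligonucleotide comparisons. At 200 nM it rose from 0.305 ± 0.02 to 10.2 ± 2.55 CPM in MDA-MB-231 (SD, n = 3 each, log2 change 5.06, adjusted p = 4.89e-06, edgeR). In U87MG it rose from 0.0623 ± 0.0409 to 2.18 ± 0.132 CPM (log2 change 5.12, adjusted p = 9.06e-07). With the siRNA it was not called in either line (adjusted p = 0.424 and 0.812). Of the 8 procollagen processing genes tested, 2 rose and 2 fell in each line at 200 nM, beside 25.2% of all genes called in MDA-MB-231 and 49.7% in U87MG, where the share is that of the background. ADAMTS2, a procollagen N-proteinase, was among those that fell in U87MG (log2 change -0.98, adjusted p = 0.016).

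Among 20 other proteoglycan core proteins tested, 2 rose and 6 fell in MDA-MB-231 (25.2% of all genes called) and 2 rose and 11 fell in U87MG (49.7%) at 200 nM. At 50 nM the balance in MDA-MB-231 was the other way, with 4 higher and 2 lower (median 0.08, against 0.01 over all genes; 23.3% of all genes called), and in U87MG 2 rose and 10 fell (54.6%). SDC1, the membrane proteoglycan syndecan, fell by 1.0 and 1.48 (adjusted p = 8.45e-05 and 1.01e-06, edgeR), and ESM1, a secreted dermatan sulphate proteoglycan, fell by 1.98 in U87MG (adjusted p = 1.77e-05). Of the other small leucine-rich proteoglycans 5 of 13 could be tested at 200 nM, and PODNL1 in MDA-MB-231 was the only call (log2 change 0.56, adjusted p = 0.0245). Of 17 genes of elastic fibres and lysyl oxidase partners, 6 fell in MDA-MB-231 (25.2% of all genes called) and 8 in U87MG (49.7%) at 200 nM and none rose, so that in U87MG the share called was close to that of all genes. At 50 nM 4 fell and 1 rose in MDA-MB-231 (23.3%), and 8 fell and 1 rose in U87MG (54.6%). EFEMP2, the fibulin that brings lysyl oxidase to elastin, fell by 0.57 and 1.14 (adjusted p = 0.00289 and 5.23e-06).

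Splicing is given as PSI (percent spliced in, here a fraction from 0 to 1), the share that includes an exon among the transcript forms an event compares. The tables hold no read counts beside PSI, so the depth of each value is unknown. Events were tested with limma where every library of the pair had a value and the values spanned at least 0.05, and were called at an adjusted p below 0.05 with a mean difference of at least 0.10. Of 14 tested events of the 10 genes 5 were called in U87MG at 200 nM, against 19.6% of all events. None was called in MDA-MB-231 at 200 nM (22 tested, 1.42% of all events called) or 50 nM (16 tested, 0.199%), or in U87MG at 50 nM (12 tested, 13.8%). None was called with the siRNA or in the tumours, where 0% of all events were called, though 3676, 3417 and 2769 events had an unadjusted p under 0.05 (MDA-MB-231, U87MG, PDX; limma).

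The 63-base exon of PLOD2, printed above, was measured in more than 1 event, among them events to exon 15 and to exon 16. To exon 15 its PSI was lower with ASO-1570 in both lines and at both doses, by amounts that did not pass the call. At 200 nM its PSI was 0.702, 0.752 and 0.768 in MDA-MB-231 controls and 0.619, 0.666 and 0.636 in treated libraries (difference -0.100, adjusted p = 0.259, limma; exact two-sided permutation p = 0.1, the smallest that 3 against 3 allow). In U87MG it was 0.870, 0.866 and 0.870 against 0.782, 0.794 and 0.792 (difference -0.079, adjusted p = 0.0423, under the 0.10 required). At 50 nM it was 0.696, 0.726 and 0.715 against 0.582, 0.597 and 0.630 in MDA-MB-231, and 0.835, 0.846 and 0.852 against 0.756, 0.781 and 0.782 in U87MG (adjusted p = 0.295 and 0.135). In each of these 4 pairs every treated library lay below every control. The share of all events whose groups do not overlap was not counted. To exon 16 the PSI did not show this: at 50 nM it was 0.851, 0.853 and 0.867 against 0.833, 0.884 and 0.842 in MDA-MB-231, and 0.976, 0.973 and 0.970 against 0.973, 0.977 and 0.974 in U87MG. At 200 nM the groups of that event overlapped in both lines as well (differences -0.024 and -0.003). A further PLOD2 event listed with a 63-base exon was at 0.987 to 1 in all 200 nM libraries of both lines, treated and control. Its span there was too small for a test, and it was at 0.999 to 1 in the U87MG siRNA libraries.

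With the TRA2B siRNA the same exon, measured to exon 15, lay the other way. Its PSI to exon 15 was 0.644, 0.658 and 0.617 in MDA-MB-231 controls and 0.709, 0.743 and 0.747 in treated libraries, and 0.837, 0.847 and 0.840 against 0.889, 0.881 and 0.881 in U87MG (adjusted p = 0.781 and 0.768, limma). Again the groups did not overlap, in the opposite order. The share of all events whose groups do not overlap was not counted here either. To exon 16 the PSI was 0.863, 0.834 and 0.804 in MDA-MB-231 siRNA controls and 0.895, 0.902 and 0.899 in treated libraries. In U87MG it was 0.97, 0.964 and 0.972 against 0.982, 0.986 and 0.978, a span too small for a test. These groups did not overlap either, with the treated libraries higher. None of these siRNA differences passed, and the difference between oligonucleotide and siRNA was not tested for PSI.

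In the controls the PLOD2 exon, measured to exon 15, was included at a lower share in MDA-MB-231. The differences from U87MG were -0.128, -0.132 and -0.202 in the 200 nM, 50 nM and siRNA tables (adjusted p = 0.00765, 0.00575 and 0.00021, limma over all 4 groups of a table), where 6.83%, 6.68% and 9.78% of all events differed. The tumours included the exon least, at 0.123, 0.201, 0.123, 0.190 and 0.208 in controls and 0, 0.216, 0 and 0.072 in the 4 treated tumours with a value. PLOD2 stood at 3.77 to 16.6 CPM there, the lowest PLOD2 levels of the series, beside values whose read depth is unknown. All of these PSI values of the exon share its flanking exons 13 and 15 of PLOD2-201 (chr3:146079116-146079257 and chr3:146076782-146076895).

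A second event of PLOD2 concerned exon 3, printed above, set between exon 1 and exon 5. Its PSI in U87MG at 200 nM went from 0.937, 0.893 and 0.912 to 0.791, 0.745 and 0.727 (difference -0.160, adjusted p = 0.0122, limma). MDA-MB-231 had a PSI of 1 in all libraries but 1 treated library at 0.804. Both forms that the event compares leave out exons 2 and 4. The call was lost without control replicate 1 or 3 (adjusted p = 0.0557 and 0.0525) and with the replicate block (adjusted p = 0.0504).

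Of the 5 calls the largest difference was in PLOD1. The 104-base alternative exon between exons 6 and 8 went in U87MG at 200 nM from a PSI of 0.855, 1 and 1 to 0.128, 0.083 and 0.114 (difference -0.843, adjusted p = 0.000513, limma). At 50 nM the treated libraries were at 0.282, 0.078 and 0.089 and 1 control had a value, 1, so no test was made. In MDA-MB-231 the exon was at 0.851 ± 0.040 against 0.872 ± 0.028 at 200 nM, and at 0.893 ± 0.102 against 0.970 ± 0.026 at 50 nM (SD, n = 3). The effects in the lines differed by 0.864 (adjusted p = 0.000147, limma interaction), where 8.07% of all events differed; at 50 nM 4.89% and with the siRNA 0.00571% of all events did, with none of the 10 genes' events among them.

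Main exon 7 of PLOD1, printed beside it, was included at 1.000 in the U87MG controls and at 0.996 ± 0.001 (SD, n = 3) in treated libraries at 200 nM in the event whose upstream exon is a longer form of exon 6 (chr1:11954301-11954893) and whose downstream exon is exon 8. Both forms compared in the event of the alternative exon lack exon 7, so its PSI is a share of those transcripts and not of all PLOD1 transcripts. In the tumours the alternative exon was at 0.673, 1, 1, 1 and 0.639 in controls and at 1, 1, 1, 1 and 0 in treated tumours.

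The other PLOD1 calls in U87MG at 200 nM were of exons at a PSI of 1 in each control library. Exon 9 between exons 6 and 11 went from 1 in the 3 controls to 0.811, 0.770 and 0.877 (difference -0.181, adjusted p = 0.00983, limma), and exon 16 between exons 14 and 18 from 1 to 0.855, 0.890 and 0.940 (difference -0.105, adjusted p = 0.0243). Both forms compared for exon 9 leave out exons 7, 8 and 10, and both forms compared for exon 16 leave out exons 15 and 17. These PSI values are therefore shares of such transcripts and not of all PLOD1 transcripts. The exon 16 call was lost in 5 of 6 fits that left out a library, all but that without treated replicate 3: the adjusted p was 0.0634 to 0.0821 in 4 of them, and the difference fell to -0.085 without treated replicate 1. It was also lost with the replicate block (adjusted p = 0.0686). For exon 9 the line effects differed by 0.211 (adjusted p = 0.00979).

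LOXL3 gave the 1 called event that rose. Exon 5, printed above, was set between exons 3 and 6, so that its exclusion joins exon 3 to exon 6 as in the short forms. Both forms that this event compares leave out exon 4, so its PSI is a share of those transcripts and not of all LOXL3 transcripts. Its PSI in U87MG at 200 nM went from 0.398, 0.391 and 0.378 to 0.633, 0.579 and 0.605 (difference 0.217, adjusted p = 0.0027, limma), while LOXL3's level did not pass. In MDA-MB-231, where LOXL3 is scarce, it was 0.708, 1 and 1 against 1 in all treated libraries. This event was listed in the 200 nM table only. The same exon set between exons 4 and 6 was at 0.911 ± 0.020 in U87MG controls and 0.972 ± 0.028 in treated libraries at 200 nM, and at 0.899 ± 0.016 and 0.986 ± 0.007 at 50 nM (SD, n = 3; differences under 0.10, adjusted p = 0.077 and 0.021). The PSI of that second event differed between the control groups, MDA-MB-231 minus U87MG, by -0.665, -0.619 and -0.687 in the 3 tables (adjusted p = 0.00392, 0.0247 and 5.3e-05, limma). The event between exons 3 and 6 differed the other way, by 0.514 in the 200 nM controls (adjusted p = 0.000931, limma). Of all events, 6.83%, 6.68% and 9.78% were called between the control groups at 200 nM, at 50 nM and with the siRNA.

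**Figure D5:**
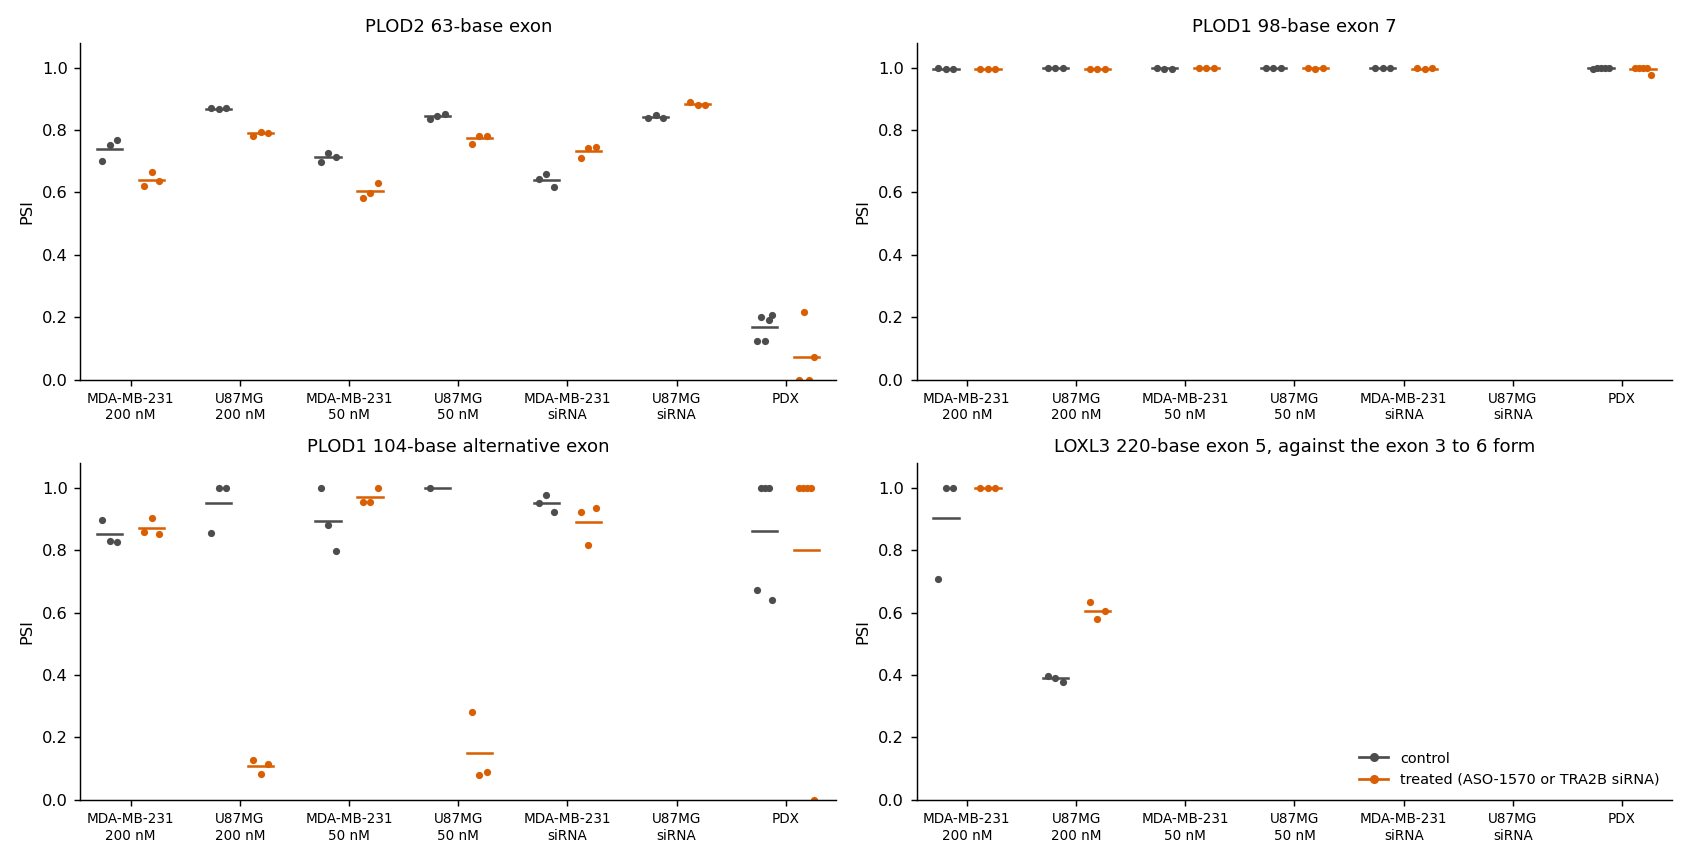
Points are the PSI of an exon in each library or tumour, lines are group means, grey for controls and orange for treated; pairs with no value are left empty. The PLOD2 exon, measured to exon 15, lies lower with the oligonucleotide and higher with the siRNA in the lines. Main exon 7 of PLOD1 stays near 1, and the 104-base alternative exon of PLOD1 drops in U87MG. LOXL3 exon 5, set between exons 3 and 6, rises in U87MG.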

How the data were processed

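Gene tables were deposited as raw counts (whole numbers). The submitters' processing notes name FastQC, MultiQC, Trimmomatic, STAR, StringTie and GRCh38, with versions and counting strand not given in the sources used here. The deposited splicing tables hold PSI as a fraction; their file names give rMATS. Mouse host reads in the tumours are not addressed in the sources used here.

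Counts were tested with edgeR 4.0.16 (filterByExpr, TMM, quasi-likelihood, all groups of a table in 1 fit, adjusted p below 0.05) and PSI with limma 3.58.1; DESeq2 1.42.0 was an alternative. Each log2 change has an SE computed from its F statistic. Levels are CPM on TMM-scaled library sizes, also per kb of merged GENCODE 29 exons. Both tests were tested on simulated data. Symbols matched 60340 of 60668 identifiers. The genes and lists were chosen with earlier results of these data known; named are all 10 genes, TRA2B, up to 3 called genes with the smallest adjusted p per list and comparison, and called splicing events with the 63-base exon of PLOD2. Alternatives were another scaling, no filter, DESeq2, a replicate block, 2-group fits, leaving out each library, and for PSI a logit, no range filter and missing values. The fits of PSI differences between lines were added after seeing the data.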

Additional observations from a re-analysis of the deposited data

Results flagged for a closer look

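In the PDX, 6 of 24 groups of 4 or 5 values held a sample far from the others by Dixon's test, which flags about 1 group in 20 by chance. The treated group had such a tumour for LOX at 9.61 CPM, for PLOD2 at 16.2 CPM and for LUM at 0.0214 CPM. The control group had one for LOXL3 at 5.24 CPM and for LUM at 0.0599 CPM. The PSI of the PLOD1 alternative exon was 0.000 in 1 treated tumour and 1 in the others.

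Several effects differed between the lines by a test of the difference, MDA-MB-231 minus U87MG. At 200 nM the log2 differences were 1.65 for LUM, 4.52 for DCN (a fitted value against controls without reads), 0.85 for LOXL2, 1.10 for LOXL4, -0.41 for PLOD1 and -0.79 for PLOD2. DCN was tested there only because it passed the filter through U87MG, so its difference is not read as a result. At 50 nM they were 1.75 for LUM, 0.85 for LOXL2, 0.91 for LOXL4, -0.50 for PLOD1 and -0.52 for PLOD2. With the siRNA LOX differed by 1.43. In PSI at 200 nM the effects differed by 0.864 for the PLOD1 alternative exon and by 0.211 for PLOD1 exon 9.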

How the results depend on the processing

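Of 23 called changes of the 10 genes under treatments, 17 kept their call in every alternative that tested them. Over the 251 values of those 23, 226 stayed on their side of the threshold, 25 lost it and 0 changed sign. DCN in MDA-MB-231 at 200 nM, among the 17, and at 50 nM did not pass the filter when its control and treated groups were fitted alone. That alternative gave no value for it. The log2 change of LOX in U87MG at 200 nM, close to 0, became -0.02 with DESeq2's size factors and with DESeq2, and -0.01 with no filter and with the replicate block. BGN in U87MG at 50 nM became -0.05 with no filter, and LOXL4 in the PDX -0.17 with the mitochondrial share as a covariate. The siRNA line difference counted 0 of the 10 genes with DESeq2's size factors and with no filter, and the U87MG siRNA comparison 2 with DESeq2. Over all genes, the TRA2B siRNA called 971 in U87MG, against 481 with no filter and 1714 with DESeq2, and 1676 in MDA-MB-231, against 982 with no filter. The siRNA line difference called 122, against 80 with DESeq2's size factors, 27 with no filter and 395 with DESeq2. Dose differences called 41 in MDA-MB-231, against 25 with no filter and 152 with DESeq2, and 429 in U87MG, against 688 with DESeq2. In the PDX 0 became 3 with DESeq2. Leaving out 1 library lowered 6601 calls to 4221 in MDA-MB-231 at 200 nM (control replicate 2) and 5590 to 3696 at 50 nM (treated replicate 2). It lowered the siRNA calls to 796 in MDA-MB-231 and 476 in U87MG (control replicate 1 of each) and the siRNA line difference to 26 (U87MG treated replicate 1), and moved the MDA-MB-231 dose difference to between 13 and 699 (without control replicate 2 at 50 nM and treated replicate 3 at 200 nM). The cause was not tested.

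Leaving out 1 library at a time gave 1 to 2 of the 10 genes called for the MDA-MB-231 siRNA (1 without control replicate 1 or 2 or treated replicate 2), 0 to 2 for the U87MG siRNA (0 without control replicate 1, 2 without control replicate 2), 0 to 1 for their difference, and 3 to 5 splicing events in U87MG at 200 nM (3 without control replicate 1 or 3). Values that changed sign, none of them called, ranged from -0.1 to 0.18 for LOX in U87MG at 200 nM, -0.15 to 0.2 for LOX and -0.18 to 0.1 for LOXL1 in MDA-MB-231 at 50 nM. In U87MG at 50 nM they ranged from -0.29 to 0.2 for BGN, -0.21 to 0.74 for LOX and -0.07 to 0.29 for LOXL3. With the siRNA they ranged from -0.27 to 0.37 for LOXL3 in MDA-MB-231, and in U87MG from -0.06 to 0.63 for BGN, -0.1 to 0.13 for LOXL4 and -0.09 to 0.01 for PLOD1. In the PDX they ranged from -1.1 to 0.12 for DCN, -0.01 to 0.61 for LOXL1 and -0.13 to 0.38 for LOXL4. In PSI they ranged from -0.007 to 0.002 for the PLOD2 63-base exon measured to exon 16 in MDA-MB-231 at 50 nM, and from -0.118 to 0.138 for the PLOD1 alternative exon in the PDX.

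Replicate numbers did not pair the samples: correlations of same-numbered deviations ran from -0.09 to 0.1 in the lines and from -0.21 to 0.77 in the PDX. The replicate block left the number of the 10 genes called as it was in all 17 comparisons and lowered the called splicing events in U87MG at 200 nM from 5 to 3, losing PLOD2 exon 3 and PLOD1 exon 16. Read depth behind each PSI is unknown, and DCN in MDA-MB-231 and LUM in the PDX rest on a few reads.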
